A study of Mus musculus with 24 samples.

Results

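The comparison described here is that of hippocampal CA1 at 6 h after status epilepticus (SE) with all saline controls, across all genes of the count table. Its members were chosen by the labels alone and comprise 12 of the 24 RNA-seq libraries of the series, namely the 3 libraries of pilocarpine-treated mice taken at 6 h (SE 6 h) and the 9 libraries of non-SE control mice (Ctr 12 h, Ctr 36 h and Ctr 72 h, 3 libraries each). All mice were adult C57Bl/6N animals of at least 60 days. Every animal received scopolamine methyl nitrate (1 mg/kg) and, 20 min later, either pilocarpine hydrochloride (335 mg/kg) or saline, and diazepam (4 mg/kg) was given 40 min after SE onset, with controls handled in the same way apart from the saline. Only mice that developed SE entered the SE groups, so that the comparison is between animals selected for a seizure response and unselected controls. No control of 6 h was used here. The effect of SE and that of the hour of the day at which tissue was taken therefore cannot be told apart, and neither can fewer cells of a type and less RNA per cell in this bulk tissue. The labels do not say whether each library came from a mouse of its own, so the p-values measure the spread between these libraries, which may in part be technical.

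Pilocarpine activates muscarinic acetylcholine receptors and drives prolonged seizures. Neuronal firing raises calcium and activates kinases that switch on immediate early genes, many of which encode transcription factors of the AP-1 (Fos and Jun), Egr and Nr4a families, and these are followed by effector genes acting at synapses. Microglia, the resident immune cells of the brain, and astrocytes, which clear transmitter and buffer ions, respond to injury by leaving their homeostatic expression state and by producing cytokines, chemokines and structural proteins.

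Values are given below as CPM, counts relative to the library total scaled by TMM factors. For single genes the 3 SE 6 h libraries are given in the order of their replicate numbers and the 9 controls by their lowest, median and highest value. Calls rest on the quasi-likelihood test of edgeR, adjusted by Benjamini-Hochberg across every gene tested, and need an adjusted p no higher than 0.05 together with a log2 fold change of 0.66 or more in either direction, and "rose" and "fell" are used of called genes alone. Values after ± beside a log2 fold change are standard errors, and fold changes compare SE 6 h with the average of the control groups. Genes are termed clearly expressed when their mean log2 CPM over the 12 libraries is 1 or more and no SE 6 h library overlaps a control. The deposited counts are of a kit that does not keep the strand, so values of genes that share 1000 or more exonic bases with a gene on the other strand are uncertain, which among the genes named applies to Bdnf, Fgf2, Tnfrsf12a, Nfkb2, Hspa5, Ddit3, Csf1r, Fgfr3, Slc7a10, Angpt2, Dclk1, Arpp21 and Fndc9.

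The 12 libraries held 2663936 to 27648010 counts (median 12260453.5), and the 3 SE 6 h libraries held 11901419, 10949845 and 25572520. The log2 CPM profiles of the SE 6 h libraries correlated with each other at 0.966 to 0.979 across genes. On the first principal component, which held 33.8% of the variance, the lowest SE 6 h library (42.49) lay above the highest control (9.534), with an exact permutation p of 0.00909, the smallest that 3 against 9 libraries allow. Without SE 6 h replicate 1 or without replicate 2 the groups overlapped on this component. The score farthest from 0 on it was that of Ctr 72 h replicate 2 (-158.1), and the other controls scored -23.83 to 9.534. On the second component (27.9%) that library scored 68.2, within the SE 6 h range of 54.55 to 79.68. Without it the first component held 42.8%, with the lowest SE 6 h library at 71.94 and the highest control at -18.88. Control library Ctr 72 h replicate 2 stood apart: 18 genes of sensory ganglia, a tissue outside the hippocampus, summed to 3089.9 CPM there, against 31.3 to 169.9 CPM in the other controls, 87.5 and 109.9 CPM in SE 6 h replicates 1 and 2 and 666.95 CPM in SE 6 h replicate 3. The labelled region was described with marker lists: CA1 pyramidal markers summed to 1160.3 to 2456.1 CPM in controls and 1088.3 to 1484.3 CPM at SE 6 h, dentate granule cell markers to 297.3 to 512.9 and 318.2 to 365.3 CPM, and choroid plexus markers to 11.2 to 109.1 and 19.6 to 30.5 CPM. CA2 and CA3 markers summed to 715.4 to 1225.9 CPM in controls and 745.3 to 1143.4 CPM at SE 6 h. In Ctr 12 h replicate 3 they exceeded the CA1 markers (1225.9 against 1160.3 CPM). Sums of different lists do not give tissue shares, so they do not show that only CA1 was taken. Markers of infiltrating leukocytes summed to 175.2 to 229.8 CPM at SE 6 h and 69.7 to 169.4 CPM in controls. Of their 8 tested members 2 were called up (25%, beside 15.8% of all genes), and their part in the immune results below was not tested.

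At 6 h after SE, 3997 of 18153 tested genes were called, which is 22% of those tested. Of these, 2870 were upregulated (15.8%) and 1127 downregulated (6.21%), and the median log2 fold change of all genes was 0.06. All 3 SE 6 h libraries lay above all 9 controls for 2339 genes (12.9%) and below them for 1683 genes (9.27%). Genes both above all controls and called up numbered 1707, or 9.4% of those tested, and genes both below and called down 727, or 4% of those tested. An unadjusted p under 0.05 was reached by 48% of all genes tested. Rising calls were most frequent among weakly expressed genes: 28.1% of the 3136 genes whose log2 CPM averaged under 0 were called up and 0.861% down, whereas among the 13600 genes averaging 1 or more the shares were 12.2% and 7.7%. For 56 of the genes called up the plain mean CPM was lower at SE 6 h than in the controls, and for 2 of the genes called up it was lower than in the 8 controls other than Ctr 72 h replicate 2. The fit holds an RUVr factor, a term for unwanted variation. It was 0.8018 in Ctr 72 h replicate 2, -0.3917 in replicate 1 and -0.3524 in replicate 3. In the other compared libraries it was -0.04066 to 0.04929. It thus mainly describes spread within Ctr 72 h, and its part in the 56 genes above was not tested. Without the factor 3502 genes were called, 2403 up and 1099 down. Without Ctr 72 h replicate 2 and SE 6 h replicate 3, 3413 genes were called, 2220 up and 1193 down.

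**Figure D1:**
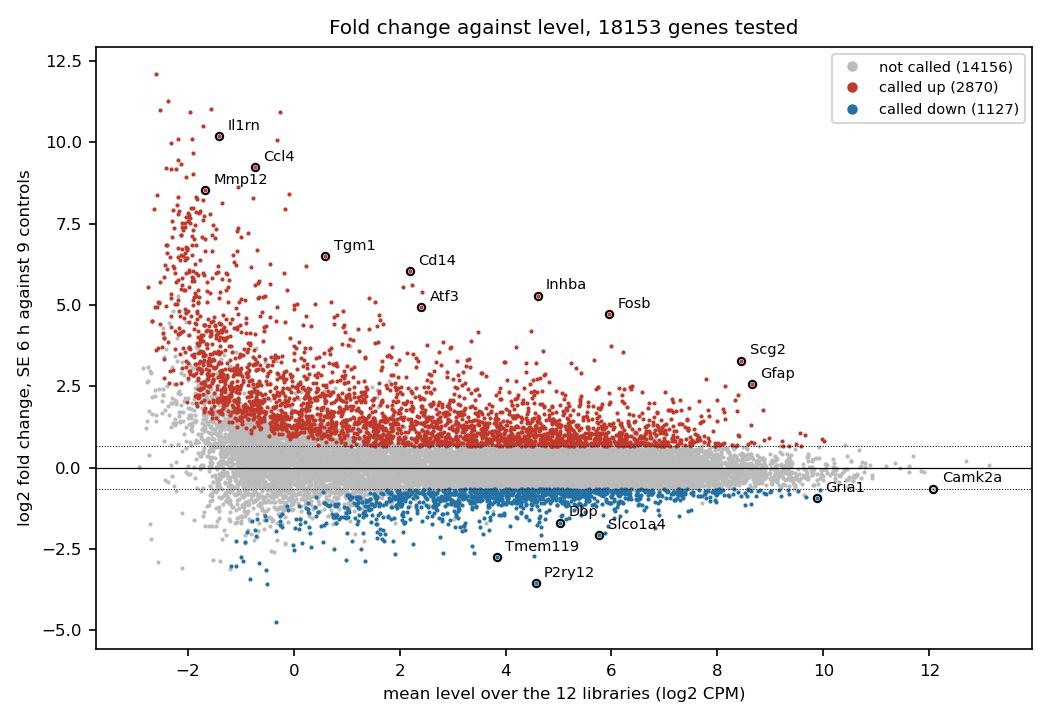
Log2 fold change of SE 6 h against the 9 controls (vertical axis) against the mean level over the 12 libraries in log2 CPM (horizontal axis), 1 point per gene tested, with called genes in red (up) and blue (down) and the fold threshold of 0.66 as dotted lines. Chemokine and cytokine genes such as Ccl4 and Il1rn lie at the top left, at low levels, Scg2 and Gfap combine a high level with a rise, and P2ry12 is the lowest of the marked genes.

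Described by gene group, the shares of called members ranged from all 25 reactive astrocyte genes called up to none of 14 general neuronal genes called in either direction. Groups of activity-regulated, cytokine, matrix and stress genes had shares of rising members well above the 15.8% of all genes, and homeostatic microglial genes had the largest share of falling members, 71.4%, beside 6.21% of all genes.

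**Figure D2:**
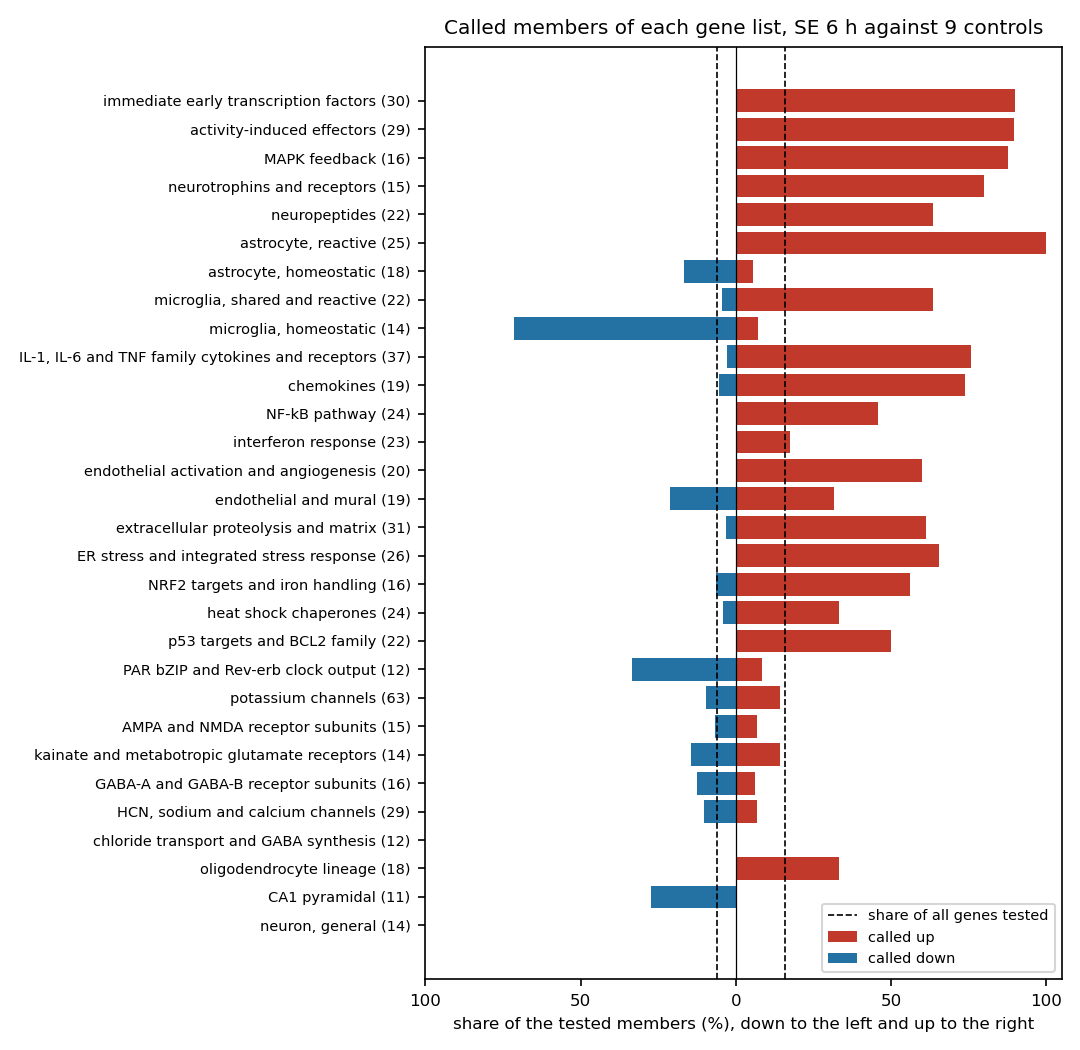
Share of the tested members of each gene list that was called up (red, to the right) or down (blue, to the left) at SE 6 h, in percent, with the number tested in parentheses and the shares of all genes tested, 15.8% and 6.21%, as dashed lines. Reactive astrocyte genes reach 100% up and homeostatic microglial genes 71.4% down, and the receptor and channel lists show at most 14.3% up and 14.3% down.

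Immediate early transcription factor genes rose: 27 of 30 tested members were called up (90%, beside 15.8% of all genes) and none down. The median log2 fold change was 2.05. All SE 6 h libraries lay above all controls for 18 of the 30 members, beside 12.9% of all genes. Fosb, an AP-1 subunit with a long-lived splice product in neurons, measured 339, 747 and 1129.8 CPM at SE 6 h and 13.3, 31.4 and 69.7 CPM in controls. Its log2 fold change was 4.71 ± 0.53, adjusted p = 1.17e-06. Atf3, a stress-induced bZIP factor, measured 40.03, 91.3 and 85.3 CPM against 0.379, 2.61 and 10.5 CPM, a change of 4.94 ± 0.48, adjusted p = 1.72e-07. In both genes each SE 6 h library exceeded each control, although the lowest and highest SE 6 h library differed by more than the fold threshold. Maff, a small Maf protein that pairs with other bZIP factors, was nearly silent in controls at 0.935, 1.31 and 2.28 CPM and reached 17.98, 34.7 and 42.1 CPM (4.41 ± 0.28, adjusted p = 6.55e-10).

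Fos rose as well, from 12.1, 33.98 and 67.8 CPM to 100.04, 238 and 574 CPM (3.299 ± 0.44, adjusted p = 8.27e-06). Csrnp1, an AXUD1-type nuclear protein, measured 59.1, 143 and 138 CPM against 4.26, 12.7 and 21.7 CPM (3.22 ± 0.24, adjusted p = 7.13e-09). Crem, which encodes the repressor ICER among its products, measured 56.3, 115 and 129.8 CPM against 11.1, 14.7 and 20.1 CPM (2.72 ± 0.17, adjusted p = 7.73e-10). These 3 genes did not overlap between the groups. Jun (1.98), the principal partner of Fos, and Nfil3 (3.24), a bZIP repressor of clock output genes, were also above every control in every SE 6 h library. Without SE 6 h replicate 3 the changes of Fos, Jun and Nfil3 were smaller but still called, at 2.43, 1.18 and 2.46.

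The calls of Egr1, Egr2 and Npas4 depended on 1 SE 6 h library. Egr1, a zinc finger factor used as an activity marker, measured 170.3, 389 and 1359 CPM at SE 6 h and 68.1, 169.99 and 275 CPM in controls, so that replicate 1 lay within the control range and replicate 3 far above it. Egr2 showed the same spread, with 6.87, 15.6 and 102 CPM against 2.204, 5.62 and 13.98 CPM. Npas4, which is induced by neuronal calcium entry, measured 31.8, 49.9 and 189 CPM against 11.2, 24.2 and 64.5 CPM. All of them were called, with log2 fold changes of 2.06 ± 0.44, adjusted p = 0.00104 for Egr1, 2.68 ± 0.55, adjusted p = 0.000655 for Egr2 and 1.68 ± 0.59, adjusted p = 0.0289 for Npas4, but none remained called without SE 6 h replicate 3, where the values were 0.84, 0.78 and 0.51 (adjusted p = 0.141, 0.271 and 0.602). Nr4a1, an orphan nuclear receptor, was not called in the full comparison (0.800 ± 0.38, adjusted p = 0.0985), with 82.5, 189 and 294 CPM against 57.1, 118 and 168 CPM, but was called without SE 6 h replicate 1 (1.15). SE 6 h replicate 1 was the lowest of the 3 SE 6 h libraries for 27 of the 30 immediate early genes and replicate 3 the highest for 26, beside 40.3% and 35.8% of all genes tested. Replicate 1 was also the lowest for all 14 general neuronal marker genes, and the part of this in the immediate early values was not tested.

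Levels of activity-regulated genes differed between the control groups too. Against Ctr 12 h, Ctr 36 h and Ctr 72 h, each taken alone, the log2 fold change of Atf3 was 6.79, 4.46 and 3.56, that of Fosb 5.57, 4.49 and 4.08, that of Arc 2.93, 1.62 and 1.68, and that of Egr1 2.804, 1.798 and 1.58. For each of these genes the change was largest against the 12 h controls. Atf3, Fosb and Arc were called against each control group. Egr1 and Egr2 lost their calls against Ctr 72 h (adjusted p = 0.0529 and 0.0689) and Npas4 against Ctr 36 h and Ctr 72 h (adjusted p = 0.0916 and 0.44).

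**Figure D3:**
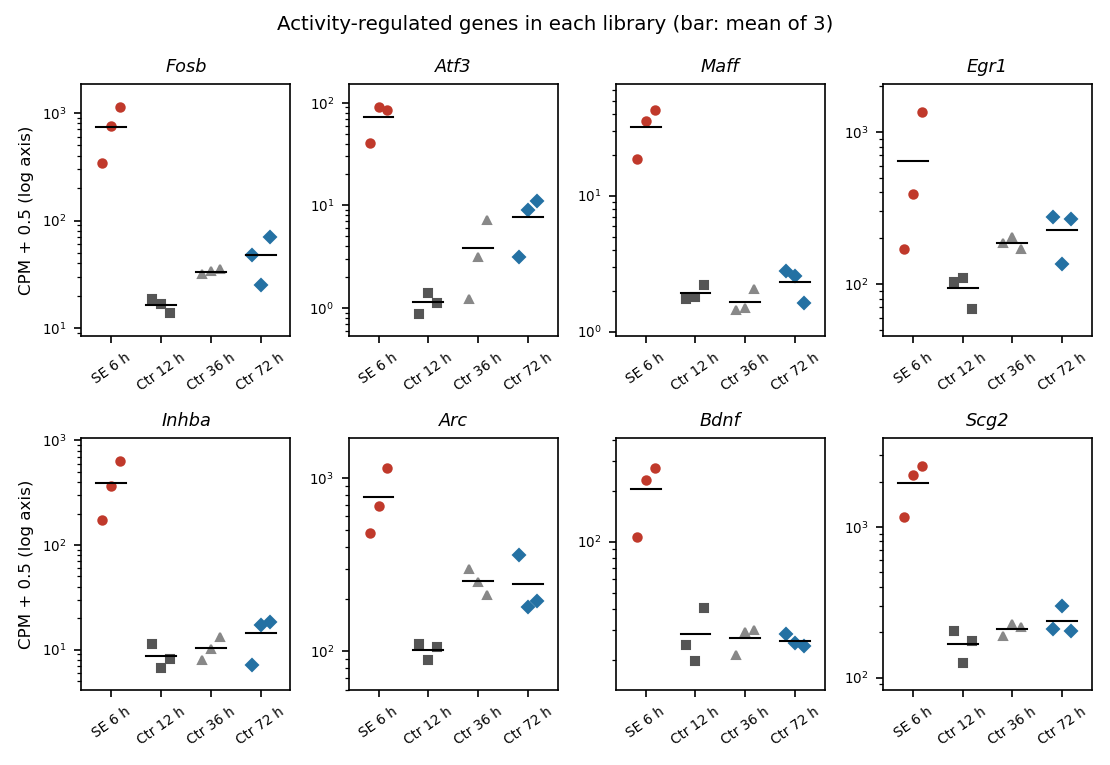
Level of 8 activity-regulated genes in each of the 12 libraries, as CPM + 0.5 on a log axis, with red circles for SE 6 h, grey symbols for Ctr 12 h and Ctr 36 h, blue diamonds for Ctr 72 h and a bar for the mean of 3 libraries. The SE 6 h libraries lie above every control for 7 of the 8 genes, and for Egr1 the lowest SE 6 h library, replicate 1, lies within the control range of 68.1 to 275 CPM.

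As examples of control sequences, the 150 bases before the transcription start are printed for 3 immediate early genes, 1 effector gene and 1 chaperone gene. They were picked because their windows hold a searched motif, so they do not stand for their lists. The sequences are from RefSeq with coordinates of GRCm38.p6, whereas the counts were made on GRCm39. Capitals mark the CArG box bound by serum response factor in Egr2 (chr10:67537719-67537868, plus strand), the cAMP response element (CRE) TGACGTCA in Maff (chr15:79347370-79347519, plus strand) and Pcsk1 (chr13:75089707-75089856, plus strand), the AP-1 element TGAGTCA in Csrnp1 (chr9:119983024-119983173, minus strand), and the heat shock element GAANNTTC in Hspb1 (chr5:135887769-135887918, plus strand).
Egr2: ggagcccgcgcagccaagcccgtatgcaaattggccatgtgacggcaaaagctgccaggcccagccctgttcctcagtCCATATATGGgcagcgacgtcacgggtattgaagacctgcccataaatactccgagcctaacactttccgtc
Maff: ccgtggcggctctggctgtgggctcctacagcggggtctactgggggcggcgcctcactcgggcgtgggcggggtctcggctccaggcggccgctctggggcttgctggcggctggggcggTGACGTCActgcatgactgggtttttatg
Csrnp1: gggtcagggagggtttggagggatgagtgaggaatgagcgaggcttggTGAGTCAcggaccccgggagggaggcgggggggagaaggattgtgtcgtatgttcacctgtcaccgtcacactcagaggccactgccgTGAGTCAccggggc
Pcsk1: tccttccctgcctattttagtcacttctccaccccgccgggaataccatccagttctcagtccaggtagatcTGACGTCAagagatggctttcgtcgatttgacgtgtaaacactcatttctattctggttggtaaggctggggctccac
Hspb1: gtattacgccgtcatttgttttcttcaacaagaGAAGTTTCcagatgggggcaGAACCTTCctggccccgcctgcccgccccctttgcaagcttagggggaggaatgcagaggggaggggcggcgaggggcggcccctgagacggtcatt

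Searched on both strands over the 250 bases before each start, in the 27025 genes of the RefSeq table, the CRE occurred in 1.77%, the AP-1 element in 5.16%, the CArG box in 1.62% and the heat shock element in 7.73%, each motif being counted on its own. A gene with several starts counted as a match if any of its windows held the motif. Of the genes called up, 1994 had a window and 7.87% of these held the AP-1 element, beside 4.11% of 802 genes called down and 4.14% of all 12764 tested genes with a window. The CRE was in 3.11% of the genes called up, 1.37% of those called down and 2.81% of those tested. Among the called immediate early genes with a window, 2 of 20 held the CRE (Maff and Btg2) and 2 of 20 a CArG box (Egr2 and Srf). In the same list 1 of 20 held the AP-1 element and 2 of 20 the heat shock element. Of all tested genes with a window, 1.43% held a CArG box and 6.18% the heat shock element. Among the called effector genes 3 of 20 held the CRE (Pcsk1, Errfi1 and Arl4d), 1 of 20 the AP-1 element and 1 of 20 the heat shock element. These counts describe letters in a window and are not evidence of binding.

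Activity-induced effector genes, which act at synapses and in secretion, rose in 26 of 29 tested members (89.7%, beside 15.8% of all genes). None was down, and the median was 1.92. Inhba, which encodes the activin A subunit and changed most in this group, measured 173, 365 and 638 CPM against 6.22, 9.71 and 17.997 CPM. The change of 5.29 ± 0.45, adjusted p = 3.43e-08 corresponds to 39.04-fold. Nptx2, a pentraxin that clusters AMPA receptors, measured 268, 529 and 585 CPM against 10.6, 34.4 and 103 CPM (3.73 ± 0.43, adjusted p = 1.36e-06). Pcsk1, a prohormone convertase with a CRE in the window printed above, measured 242, 492 and 738 CPM against 26.4, 43.5 and 65.6 CPM (3.56 ± 0.31, adjusted p = 4.5e-08). In all of these the SE 6 h libraries and the controls did not overlap.

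Homer1, a postsynaptic scaffold gene whose short Homer1a transcript is induced by activity, measured 456, 825 and 1589 CPM against 82.8, 138 and 204 CPM (2.74 ± 0.397, adjusted p = 2.35e-05), and the counts do not separate the transcripts. Arc, which acts in AMPA receptor endocytosis, measured 481, 691 and 1143 CPM against 88.1, 195 and 358 CPM (2.08 ± 0.38, adjusted p = 0.000248). Both groups of libraries were again separate in each gene. Gadd45g (3.22), Errfi1 (2.403), an inhibitor of the EGF receptor, and Syt4 (1.82), a synaptotagmin, rose with them, Errfi1 by 1.696 without SE 6 h replicate 3. Plk2, a kinase that weakens synapses after activity, was not called, at 297 to 529.9 CPM against 202 to 406 CPM (0.39 ± 0.18, adjusted p = 0.0965).

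Genes that restrain MAP kinase signalling rose in 14 of 16 members (87.5%, beside 15.8% of all genes), with none down. Their median was 1.34. Dusp4, a nuclear phosphatase of ERK, measured 41.8, 38.9 and 52.7 CPM against 4.77, 11.2 and 16.3 CPM (2.11 ± 0.35, adjusted p = 0.000102). Spry2, an inhibitor of receptor tyrosine kinase signalling, rose by 1.69. Dusp1, with 43.1, 75.7 and 147 CPM against 13.3, 25.3 and 43.6 CPM, was called (1.75 ± 0.28, adjusted p = 6.61e-05) although replicate 1 was just below the highest control, and the change was 1.15 without replicate 3. The call of Dusp6, the cytoplasmic ERK phosphatase, rested on single libraries: its change was 0.82 ± 0.27, adjusted p = 0.0212, and it came to 0.41 when SE 6 h replicate 3 was left out and to 0.796 when replicate 2 was (adjusted p = 0.314 and 0.0686). The remaining members, Dusp7 (0.34) and Dusp8 (0.41), were not called.

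Among neurotrophins, other growth factors and their receptors, 12 of 15 tested genes were called up (80%, beside 15.8% of all genes). None was down, and the median was 1.47. For 2 of the 12 the plain mean was higher in the controls, and 10 rose on both scales. Bdnf, the neurotrophin that acts on TrkB, measured 106, 229 and 273 CPM against 19.4, 24.7 and 40.2 CPM (2.92 ± 0.36, adjusted p = 3.03e-06). Its receptor gene Ntrk2 also lay above every control, with 1165, 1489 and 1404 CPM against 606, 656 and 798 CPM (0.99 ± 0.100, adjusted p = 2.83e-07). Growth factors made by glia and vessels rose also, including Fgf2 (1.97), Hbegf (1.93), a ligand of the EGF receptor, and Vegfa (1.08), which promotes vessel growth and permeability and lost its call against Ctr 72 h alone (0.66, adjusted p = 0.0563).

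Of 22 neuropeptide and granin genes tested, 14 were called up (63.6%, beside 15.8% of all genes), none down, and the median was 1.63. Scg2, the secretogranin of dense-core vesicles, had the largest gain in CPM of the clearly expressed genes, with 1160.2, 2196 and 2553 CPM against 125, 204 and 297 CPM (3.29 ± 0.26, adjusted p = 1.26e-08). Vgf, a further granule protein gene, measured 613, 1307 and 1272 CPM against 155, 176 and 296 CPM (2.52 ± 0.24, adjusted p = 1.1e-07). Both were above every control by a wide margin in all 3 SE 6 h libraries. Nts, encoding neurotensin, rose from 3.29, 11.3 and 26.2 CPM to 90.6, 250.2 and 294 CPM (4.197 ± 0.39, adjusted p = 1.1e-07), and Crh, encoding corticotropin-releasing hormone, from 0, 0.887 and 3.75 CPM to 8.39, 16.2 and 15.5 CPM (4.31 ± 0.33, adjusted p = 9.19e-09, or 3.34 without Ctr 72 h replicate 2). Sst (1.39 ± 0.25, adjusted p = 0.000203) and Npy (0.98 ± 0.21, adjusted p = 0.00107), which mark interneurons, were called, but SE 6 h replicate 1 lay within the control range for both. Penk, encoding enkephalin, was not called (0.702 ± 0.49, adjusted p = 0.268).

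All 25 reactive astrocyte genes tested were called up (100%, beside 15.8% of all genes), and the median was 3.25. For 20 of them all SE 6 h libraries lay above all controls, beside 12.9% of all genes. Gfap, the intermediate filament that defines reactive astrocytes, measured 1980.3, 1560.5 and 1083 CPM against 217, 254 and 309 CPM. The log2 fold change was 2.57 ± 0.17, adjusted p = 8.43e-10, and replicate 3 had the lowest Gfap of the SE 6 h libraries where it had the highest of most immediate early genes. Tgm1, a transglutaminase, was close to undetected in controls at 0, 0.473 and 0.986 CPM and measured 40.8, 59.7 and 31.9 CPM at SE 6 h (6.499 ± 0.37, adjusted p = 2.09e-10). Aspg (4.68), an asparaginase, and Sphk1 (5.103), which makes sphingosine 1-phosphate, were among the 10 largest rises of clearly expressed genes.

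Vim, the second intermediate filament of reactive astrocytes, measured 264, 218 and 220.2 CPM against 32.3, 42.1 and 189 CPM (2.23 ± 0.19, adjusted p = 3.26e-08), the highest control value being that of Ctr 72 h replicate 2. Serpina3n, a protease inhibitor, rose by 2.43 and Lcn2, encoding the iron-binding lipocalin 2, by 4.42, a change that was 5.57, 6.02 and 1.67 against Ctr 12 h, Ctr 36 h and Ctr 72 h alone. Cd44, a hyaluronan receptor, was called at 3.898 ± 0.26, adjusted p = 1.02e-09 but overlapped, since Ctr 72 h replicate 2 held 68.6 CPM where the next highest control held 7.499 CPM, and without that library the change was 4.34. By contrast, homeostatic astrocyte genes were mostly uncalled: of 18 tested, 1 was up, Sox9 (0.96), and 3 were down, namely Hapln1 (-1.502), which links hyaluronan to proteoglycans in perineuronal nets, Fgfr3 (-0.75) and Slc7a10 (-0.67). These shares were 5.56% up and 16.7% down, beside 15.8% and 6.21% of all genes. The Fgfr3 call was lost without SE 6 h replicate 3 (-0.51, adjusted p = 0.0762), and that of Slc7a10 when any 1 of 5 libraries was left out.

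Homeostatic microglial genes fell. Of 14 tested, 10 were called down (71.4%, beside 6.21% of all genes), with a median log2 fold change of -0.85. For 9 of the 14 all SE 6 h libraries lay below all controls, beside 9.27% of all genes. P2ry12, the purinergic receptor that guides microglial processes and has the largest fall of all clearly expressed genes, measured 4.15, 2.84 and 4.16 CPM against 30.4, 44.6 and 57.97 CPM (-3.55 ± 0.24, adjusted p = 1.26e-09), or 11.7-fold lower. Tmem119, a microglial surface marker, measured 7.27, 1.18 and 2.51 CPM against 11.3, 26.5 and 30.6 CPM (-2.74 ± 0.43, adjusted p = 5.46e-05), and the change was -3.61 without SE 6 h replicate 1. Selplg, the P-selectin ligand, measured 5.35, 4.702 and 6.71 CPM against 32.2, 33.8 and 46.5 CPM (-2.71 ± 0.26, adjusted p = 1.45e-07). None of these overlapped, and the fall of P2ry12 was present against each control group alone, at -3.54, -3.73 and -3.36.

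Slc2a5, the fructose transporter of microglia, fell by 2.64 on the log2 scale, and the further purinergic and orphan receptors Gpr34 (-1.94) and P2ry13 (-1.83) fell as well. Cx3cr1, the fractalkine receptor, measured 35.2, 26.3 and 25.3 CPM against 37.9, 58.2 and 79.7 CPM (-0.98 ± 0.16, adjusted p = 7.01e-05), a smaller change than that of P2ry12. Csf1r, the receptor on which microglial survival depends, was called at -0.68 but lost the call without SE 6 h replicate 1 (-0.64) or Ctr 12 h replicate 2 (-0.64). P2ry6, a receptor for UDP that triggers phagocytosis, was the 1 member called up (1.22 ± 0.27, adjusted p = 0.00129, with its call lost against Ctr 12 h alone at 0.86), and 3 members, among them Trem2 and Sall1, were not called.

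Genes shared by microglia and reactive myeloid cells mostly went the other way: 14 of 22 were called up (63.6%, beside 15.8% of all genes) and 1 down, with a median of 2.71, or 2.099 with a gene near the counting floor set to its bound. A further 7 members were not called. The summed level of the list, 1417.4 to 2050.8 CPM at SE 6 h, lay within the control range of 1373.7 to 2262.9 CPM. The highest control sum was that of Ctr 72 h replicate 2, and the next was 1783.2 CPM. Cd14, the lipopolysaccharide coreceptor and the largest rise of all clearly expressed genes, measured 65.7, 133 and 114 CPM against 0.171, 1.67 and 2.59 CPM (6.05 ± 0.36, adjusted p = 4.07e-10). Tlr2, a Toll-like receptor, measured 7.03, 10.7 and 12.6 CPM against 0, 0.626 and 0.968 CPM (4.67 ± 0.29, adjusted p = 6.31e-10). C5ar1 (4.17), the receptor of complement fragment C5a, Gpr84 (adjusted p = 3.3e-07, with at most 7 counts in any control) and Cd68 (2.61), a lysosomal protein, rose with them. Lilrb4b, an inhibitory immunoglobulin-like receptor with the near-identical copy Lilrb4a, measured 6.63, 11.7 and 10.4 CPM where controls held at most 4 counts, and reads may be divided uncertainly between the copies. The member called down was Aif1, encoding the microglial protein Iba1, with 1.52, 2.64 and 2.63 CPM against 3.46, 4.99 and 7.85 CPM (-1.13 ± 0.304, adjusted p = 0.00588), and it lost the call against Ctr 12 h alone (-0.83, adjusted p = 0.0823).

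**Figure D4:**
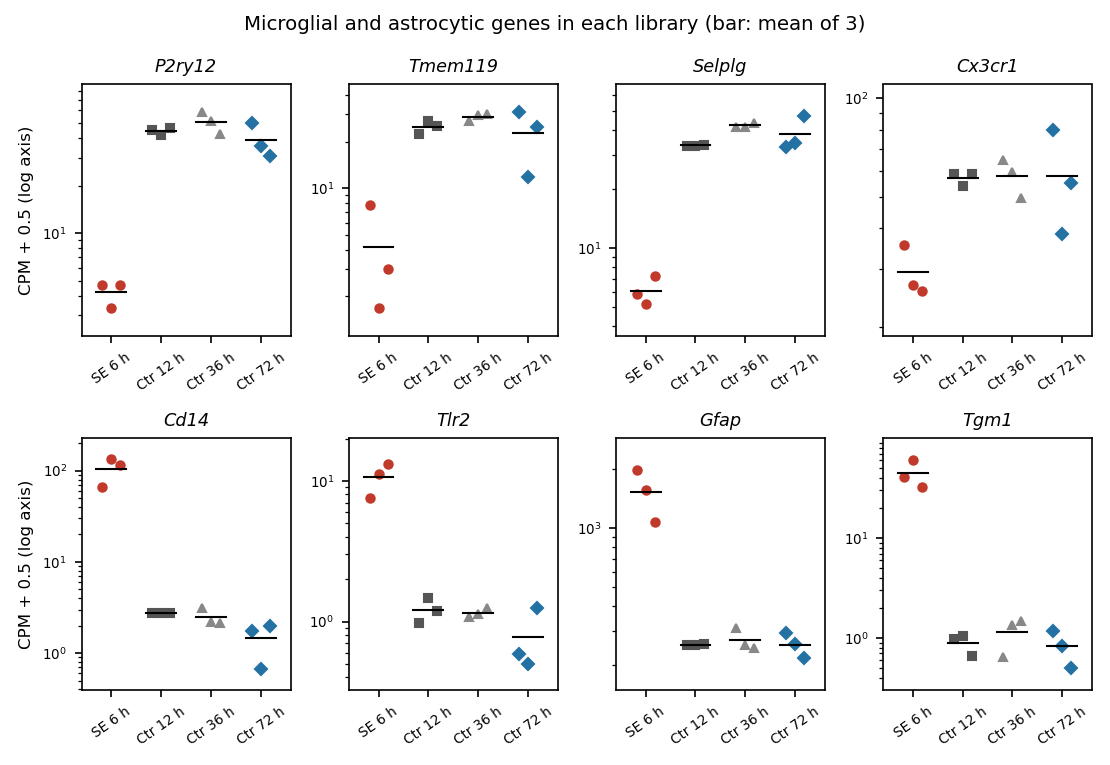
Level of 4 homeostatic microglial genes (top) and of the myeloid genes Cd14 and Tlr2 and the reactive astrocyte genes Gfap and Tgm1 (bottom) in each of the 12 libraries, as CPM + 0.5 on a log axis, with red circles for SE 6 h, grey symbols for Ctr 12 h and Ctr 36 h, blue diamonds for Ctr 72 h and a bar for the mean of 3 libraries. The SE 6 h libraries lie below every control in the top row and above every control in the bottom row.

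Chemokine genes, whose products recruit leukocytes and microglia, rose in 14 of 19 tested members (73.7%) with 1 down (5.26%). The shares of all genes were 15.8% and 6.21%. The median was 3.99, or 2.25 with 4 genes near the counting floor set to their bounds. Ccl4 measured 14.5, 39.8 and 49.9 CPM and at most 3 counts in any control (adjusted p = 5.24e-11). Ccl3, its neighbour on chromosome 11, measured 16.5, 51.04 and 69.4 CPM against 0, 0.155 and 0.7603 CPM (adjusted p = 6.2e-10). Ccl2, the monocyte chemoattractant, measured 5.83, 12.7 and 14.4 CPM against 0, 0.0719 and 2.56 CPM (adjusted p = 6.42e-09), the highest control again being Ctr 72 h replicate 2. No fold is given for Ccl4, Ccl3, Ccl2, Cxcl1 or Cxcl10, since their mean control level was under the floor of 3 counts per library. Ccl9 rose by 4.36. Cxcl1 measured 1.84, 6.27 and 7.13 CPM and the interferon-inducible Cxcl10 1.12, 0.882 and 2.76 CPM, with at most 5 and 4 counts in any control (adjusted p = 2.24e-06 and 9.34e-05), and the call of Cxcl10 was lost when counts were thinned to the smallest library. Cxcl12, which is made constitutively by vessels and neurons, fell from 52.5, 67.95 and 78.4 CPM to 43.2, 26.5 and 46.7 CPM (-0.77 ± 0.23, adjusted p = 0.0119), and lost its call without SE 6 h replicate 2 (-0.57) and against Ctr 12 h alone (-0.69).

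In the list of interleukin 1, interleukin 6 and tumour necrosis factor family members and receptors, 28 of 37 genes were called up. That is 75.7%, beside 15.8% of all genes, and the median of the list was 2.27. The list also holds the interleukin 10 receptor gene Il10ra, which is outside these families. It was the 1 member called down (2.7%, beside 6.21% of all genes). Il1rn, encoding the interleukin 1 receptor antagonist, had no count in any control and 6.63, 9.31 and 10.1 CPM at SE 6 h, which is at least 25.1-fold above a floor of 3 counts per control library (adjusted p = 6.26e-08). The cytokine genes Il1b, Il6 and Tnf stayed low. Il1b, which encodes an agonist of the interleukin 1 receptor, measured 1.04, 0.882 and 4.46 CPM. Il6 measured 0.2397, 1.18 and 2.29 CPM and Tnf 0.479, 2.35 and 3.397 CPM. Controls held at most 3, 2 and 1 counts of Il1b, Il6 and Tnf. All were called (adjusted p = 6.57e-06, 0.00136 and 6.23e-06), with replicate 3 the highest of the SE 6 h libraries in each.

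Genes of the interleukin 6 family axis separated the groups as well. Lif, a cytokine that signals through gp130, measured 12.4, 20.1 and 20.3 CPM against 0, 1.43 and 1.73 CPM (3.93 ± 0.35, adjusted p = 6.76e-08). Socs3, the feedback inhibitor of STAT3 signalling and the largest rise after Cd14 among clearly expressed genes, measured 45.3, 70.2 and 110.2 CPM against 0.657, 1.08 and 5.05 CPM (5.57 ± 0.35, adjusted p = 5.93e-10). The oncostatin M receptor gene Osmr measured 85.1, 91.5 and 92.4 CPM against 2.9995, 8.05 and 52.01 CPM (3.25 ± 0.19, adjusted p = 2.63e-10), with the highest control in Ctr 72 h replicate 2. Stat3 itself rose by 1.85 and the tumour necrosis factor receptor gene Tnfrsf1a by 2.68, with SE 6 h libraries above all controls in both.

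In the NF-kB pathway 11 of 24 genes were called up (45.8%, beside 15.8% of all genes) and none down, with a median of 0.70. Bcl3 (4.47) and Nfkb2 (3.18), which encode an atypical inhibitor and the p100 subunit, rose most together with the adhesion molecule Icam1 (19.5, 26.1 and 28.6 CPM against 0.852, 2.09 and 3.88 CPM, 3.699 ± 0.26, adjusted p = 3.41e-09). Nfkbia, the feedback inhibitor, rose by 1.27 and Nfkb1, encoding p105, by 0.84, with 31.5, 34.97 and 34.7 CPM against 13.6, 19.3 and 21.9 CPM. The interferon response list did not stand out: 4 of 23 genes (17.4%) were called up, beside 15.8% of all genes, among them Gbp2, a guanylate-binding protein (31.2, 27.04 and 28.2 CPM against 1.4998, 2.22 and 10.9 CPM, 3.38 ± 0.25, adjusted p = 5.76e-09). In the prostaglandin pathway 4 of 15 genes rose (26.7%, beside 15.8% of all genes), including the inducible cyclooxygenase gene Ptgs2 (65.9, 73.7 and 109 CPM against 4.35, 9.35 and 42.5 CPM, 2.65 ± 0.47, adjusted p = 0.000173) and Ptges, the inducible prostaglandin E synthase (2.01).

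Vessel genes split. Of 20 genes of endothelial activation and angiogenesis, 12 were called up (60%, beside 15.8% of all genes) and none down. Their median was 1.102. Angpt2, which destabilises vessels, measured 17.3, 16.6 and 19.9996 CPM against 0, 0.968 and 4.09 CPM (4.37 ± 0.32, adjusted p = 4.99e-09, or 5.07 without Ctr 72 h replicate 2), and Sele, encoding E-selectin, measured 1.598, 0.882 and 1.36 CPM with at most 4 counts in any control (adjusted p = 1.76e-06). Among 19 general endothelial and mural markers, 6 were up (31.6%) and 4 down (21.1%), beside 15.8% and 6.21% of all genes. Cdh5, the endothelial cadherin, rose from 12.5, 15.5 and 21.7 CPM to 57.1, 69.3 and 69.7 CPM (1.99 ± 0.15, adjusted p = 6.32e-09) and Pecam1 by 1.48. In the same libraries Slco1a4, a transporter of the blood-brain barrier, fell from 60.1, 82.6 and 107 CPM to 31.1, 11.4 and 14.4 CPM (-2.08 ± 0.35, adjusted p = 0.000113) and Itm2a by 1.45 on the log2 scale, with no overlap.

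Of 31 extracellular proteolysis and matrix genes, 19 were called up (61.3%) and 1 down (3.23%), beside 15.8% and 6.21% of all genes. The median was 1.94, or 1.81 with 3 genes set to their bounds. Plat, the tissue plasminogen activator, rose by 1.302 and Plaur, the urokinase receptor, by 4.68. Timp1, an inhibitor of metalloproteinases, measured 11.6, 15.97 and 9.299 CPM against 0, 0.309 and 2.05 CPM (5.01 ± 0.33, adjusted p = 1.08e-09). Adamts1, an aggrecanase, measured 87.7, 131 and 189 CPM against 6.65, 13.3 and 24.9 CPM (3.23 ± 0.23, adjusted p = 3.04e-09). Mmp12, a macrophage elastase, and Serpinb2, a plasminogen activator inhibitor, measured 3.596, 4.21 and 2.802 CPM and 3.28, 15.1 and 25.5 CPM at SE 6 h, with at most 1 and 5 counts in any control, and Serpinb2 lost its call against Ctr 72 h alone (adjusted p = 0.0632). The falling member was Hapln1, with 9.91, 10.2 and 14.6 CPM against 25.2, 34.5 and 41.4 CPM (-1.502 ± 0.22, adjusted p = 2.09e-05).

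Stress genes rose in part. In the heat shock list 8 of 24 were called up (33.3%, beside 15.8% of all genes) and 1, Ahsa2, down, with a median of 0.41. Hspa1b, an inducible HSP70 gene, measured 53.7, 45.4 and 60.5 CPM against 2.004, 5.97 and 11.7 CPM (3.09 ± 0.58, adjusted p = 0.000317), and Hspa1a, its near-identical copy, rose by 3.102, although reads may be divided uncertainly between them. Hspb1, encoding HSP27, measured 34.1, 46.3 and 32.5 CPM (2.86 ± 0.28, adjusted p = 2.37e-07), and Bag3, a cochaperone, 58.6, 104 and 86.2 CPM (2.56 ± 0.22, adjusted p = 3.15e-08). Both overlapped the controls in Ctr 72 h replicate 2 alone, which held 42.6 CPM of Hspb1 and 75.03 CPM of Bag3, where the next highest controls held 5.42 and 13.99 CPM. The abundant constitutive chaperones moved less, with Hsph1 at 1.297 and Hspa8 at 0.82. The heat shock element was in the promoter windows of 3 of the 6 rising genes with a window (Hspa1a, Hspa1b and Hspb1). It was also in those of Dnaja1, Dnaja4, Hspd1 and Hspe1, which were not called up, and a link of the element to the rise was not tested.

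In the list of endoplasmic reticulum stress and the integrated stress response 17 of 26 genes were called up (65.4%, beside 15.8% of all genes). None was down, and the median was 1.02. Hspa5, the chaperone BiP, measured 491, 901 and 1088 CPM against 208, 246 and 313 CPM (1.75 ± 0.200, adjusted p = 1.49e-06), and Atf4, the effector of that response, 196, 238 and 248 CPM against 75.05, 83.1 and 111 CPM (1.39 ± 0.13, adjusted p = 7.59e-08). Trib1 (2.68), a pseudokinase, and the C/EBP factors Cebpb (2.54) and Cebpd (2.53) were the largest rises. Ddit3, the proapoptotic factor CHOP, was not called (0.28 ± 0.19, adjusted p = 0.269), and its levels of 16.4 to 21.2 and 12.4 to 18.4 CPM overlapped.

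Of 16 genes of the NRF2 response and iron handling, 9 were called up (56.2%) and 1 down (6.25%), with a median of 0.82. The shares of all genes were 15.8% and 6.21%. Hmox1, the haem oxygenase, measured 66.1, 130.4 and 95.8 CPM against 4.45, 5.25 and 7.16 CPM (4.16 ± 0.23, adjusted p = 1.45e-10). Srxn1, a sulfiredoxin, measured 391, 495 and 414 CPM against 73.2, 79.2 and 149.9 CPM (2.33 ± 0.15, adjusted p = 8.89e-10). Slc40a1, the iron exporter ferroportin, fell from 6.75, 13.4 and 18.2 CPM to 3.596, 2.55 and 4.204 CPM (-1.92 ± 0.26, adjusted p = 1.01e-05). Of 12 metallothionein and zinc transport genes, 4 were up (33.3%) and 2 down (16.7%), beside 15.8% and 6.21% of all genes. Those up included Mt1 at 624, 858 and 566 CPM against 158, 199 and 302 CPM (1.71 ± 0.19, adjusted p = 9.2e-07), Mt2 at 2.77 and the importer Slc39a14 at 1.87. Those down were Slc39a10 and Slc30a10. Mtf1, the zinc-sensing factor that acts on metallothionein promoters, missed the fold threshold at 0.57 ± 0.09, adjusted p = 5.53e-05.

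The p53 and BCL2 list had 11 of 22 genes up (50%, beside 15.8% of all genes) and none down. Its median was 0.69, or 0.52 with 1 gene set to its bound. Cdkn1a, the cell cycle inhibitor p21, measured 121, 164 and 109 CPM against 3.09, 12.7 and 17.997 CPM (3.701 ± 0.31, adjusted p = 3.15e-08). Cdkn1a also counts among the 8 of 19 glucocorticoid response genes called up, with Angptl4 (2.97), a lipase inhibitor. In that list 42.1% were up and 5.26% down, beside 15.8% and 6.21% of all genes. The receptor gene Nr3c2 was the 1 member called down (-0.68 ± 0.27, adjusted p = 0.0497), and its call was lost without any of 10 single libraries, and Ddit4, a further target, was not called (-0.34 ± 0.203, adjusted p = 0.187).

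Of 12 clock output genes of the PAR bZIP and Rev-erb group, 4 were called down (33.3%, beside 6.21% of all genes) and 1, Bhlhe41, up, with a median of -0.16. Dbp, a PAR bZIP factor with a strong daily rhythm, measured 15.7, 10.6 and 14.3 CPM against 26.8, 44.8 and 59.2 CPM (-1.69 ± 0.27, adjusted p = 6.31e-05). Per3 measured 32.2, 19.98 and 23.3 CPM against 32.6, 61.9 and 72.6 CPM (-1.13 ± 0.16, adjusted p = 1.92e-05), and Nr1d2, encoding Rev-erb beta, and Tef, a second PAR bZIP factor, fell by 0.799 and 0.71 on the log2 scale, with SE 6 h below every control. Nr1d2 lost its call without SE 6 h replicate 2 (-0.64). The changes depended on the control group: against Ctr 12 h and Ctr 72 h alone, Per3 changed by -1.44 and -0.53 and Tef by -0.84 and -0.42, the values against Ctr 72 h not being called. In the opposite-phase list 4 of 9 genes were called up (44.4%, beside 15.8% of all genes), among them Nfil3 (3.24) and Cry1 (0.84 ± 0.18, adjusted p = 0.000931), which lost its call against Ctr 12 h alone (0.605). With no control of 6 h used here, SE and the hour of day cannot be told apart for these genes in particular.

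Of 15 AMPA and NMDA receptor genes, 1 was up (Grin3b, weakly expressed) and 1 down. That is 6.67% each, beside 15.8% and 6.21% of all genes, and the median was -0.43. The falling gene was Gria1, the GluA1 subunit, with 414, 637 and 713 CPM against 655, 1215 and 1527 CPM (-0.94 ± 0.21, adjusted p = 0.00133), and 1 SE 6 h library, replicate 3, lay above the lowest control. Against Ctr 72 h alone Gria1 was not called (-0.63, adjusted p = 0.0536). Gria2, the subunit that makes AMPA receptors calcium-impermeable, missed the fold threshold (-0.54 ± 0.14, adjusted p = 0.0051), with 539, 714 and 812 CPM against 735, 1126 and 1206 CPM, but passed it without SE 6 h replicate 3 (-0.68) and against Ctr 36 h alone (-0.800). Among 14 kainate and metabotropic receptor genes 2 were up and 2 down (14.3% each, beside 15.8% and 6.21% of all genes). They included the group I receptor gene Grm5 (149, 195 and 214 CPM against 235, 304 and 366 CPM, -0.71 ± 0.12, adjusted p = 0.000169) and the presynaptic receptor gene Grm4 (1.19). Grm5 lost its call without SE 6 h replicate 1 (-0.58) and against Ctr 12 h or Ctr 72 h alone (-0.61 and -0.56).

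GABA-A and GABA-B receptor genes were called down in 2 of 16 cases (12.5%) and up in 1 (6.25%), beside 6.21% and 15.8% of all genes. Gabra5, the extrasynaptic alpha5 subunit abundant in CA1, measured 79.3, 79.6 and 84.9 CPM against 104, 136 and 255 CPM (-0.95 ± 0.22, adjusted p = 0.00179), and was not called against Ctr 72 h alone (-0.62, adjusted p = 0.0676). The rising gene, Gabre, stayed below 3 CPM in every library (2.18). None of 12 genes of chloride transport and GABA synthesis was called by edgeR, DESeq2 or limma-voom, and 6 had an unadjusted p under 0.05, beside 48% of all genes. Among 15 cholinergic receptor and esterase genes, 2 were up (13.3%) and 1, Chrna7, down (6.67%), also near the shares of all genes. Chrm3, the M3 muscarinic receptor gene, measured 86.6, 85.5 and 87.1 CPM against 23.2, 47.7 and 78.1 CPM (0.89 ± 0.25, adjusted p = 0.00853). Chrm1, the M1 receptor gene of pyramidal cells, was not called (-0.34 ± 0.16, adjusted p = 0.104). The Chrm3 call was lost against Ctr 12 h alone (0.67, adjusted p = 0.127) and Ctr 36 h alone (0.73, adjusted p = 0.0929).

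Of 63 potassium channel genes 9 were called up (14.3%) and 6 down (9.52%), beside 15.8% and 6.21% of all genes, and for 1 of the 9, Kcnn4, the plain mean was lower after SE. Kcnv1, a silent subunit that modifies Kv2 channels, measured 11.3, 6.07 and 9.72 CPM against 22.3, 34.8 and 70.3 CPM (-2.07 ± 0.403, adjusted p = 0.000447). Kcnip2, the KChIP2 subunit of A-type Kv4 channels, measured 48.2, 62.3 and 75.3 CPM against 82.9, 162 and 248 CPM (-1.297 ± 0.37, adjusted p = 0.0088), and Kcnt2 fell by 1.25 on the log2 scale. In the other direction Kcnf1, a silent subunit also, measured 212, 409 and 445 CPM against 57.8, 115 and 172 CPM (1.700 ± 0.26, adjusted p = 3.86e-05), and Kcna4 (1.17), an A-type Kv1 channel, and Kcnj2 (1.44), an inward rectifier, rose. The Kcna4 call was lost without SE 6 h replicate 3 (0.81, adjusted p = 0.0567). Against Ctr 72 h alone, Kcnip2 (-1.097, adjusted p = 0.0564) and Kcnt2 (-0.64, adjusted p = 0.0896) were not called. Among 29 HCN, sodium and calcium channel genes 2 rose (6.9%) and 3 fell (10.3%), beside the same shares of all genes. Scn2b, a sodium channel subunit gene, measured 168, 169 and 198 CPM against 229, 298 and 415 CPM (-0.76 ± 0.11, adjusted p = 2.56e-05), and was not called against Ctr 72 h alone (-0.58).

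None of 14 general neuronal markers was called by edgeR (2 had an unadjusted p under 0.05, beside 48% of all genes) or limma-voom and 1 was called up by DESeq2, with summed levels of 18574 to 22946 CPM at SE 6 h and 20345 to 26061 CPM in controls. Camk2a, the kinase of excitatory synapses, missed the fold threshold (-0.64 ± 0.17, adjusted p = 0.00447), but it was called down in 15 of 31 alternative settings, among them when any 1 of 7 libraries was left out and against Ctr 12 h or Ctr 36 h alone (-0.73 and -0.92). Of 11 CA1 pyramidal markers 3 were called down (27.3%, beside 6.21% of all genes) and none up. The 3 were Lefty1 (1.84, 2.35 and 1.49 CPM against 2.63, 12.2 and 22.2 CPM, -2.64 ± 0.604, adjusted p = 0.00178), Spink8 (-1.39) and Ccn3 (-1.15). Fibcd1 was not called (-1.09 ± 0.45, adjusted p = 0.0589), though it was called without SE 6 h replicate 2 (-1.49), Ctr 12 h replicate 2 (-1.23) or Ctr 72 h replicate 3 (-1.23). Spink8 and Ccn3 lost their calls without SE 6 h replicate 1 (-0.97 and -0.88, adjusted p = 0.115 and 0.0635). Neurod1, a proneural factor that falls outside the marker lists, measured 4.39, 1.86 and 2.68 CPM against 8.53, 18.3 and 28.3 CPM (-2.42 ± 0.37, adjusted p = 4.12e-05), one of the 10 largest falls.

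Oligodendrocyte lineage genes were called up in 6 of 18 cases (33.3%, beside 15.8% of all genes) with none down. Their summed level was 6548.8 to 6933.4 CPM at SE 6 h against 3064.3 to 5197.4 CPM in controls. Mobp, a myelin protein gene, measured 883, 977 and 906 CPM against 314, 569.5 and 693 CPM (0.82 ± 0.29, adjusted p = 0.0287). Cldn11 (1.06), the tight junction protein of myelin, and the lineage factor Olig2 (0.97) rose also. Mbp, the myelin basic protein gene, was above every control in all SE 6 h libraries but was not called (0.55 ± 0.25, adjusted p = 0.0872). Mobp lost its call without any single SE 6 h library, the 6 calls became 1 against Ctr 36 h alone, and none remained with the label number range as a factor.

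Shares in the remaining lists are given beside 15.8% up and 6.21% down of all genes. Notch pathway genes had 3 up (16.7%) and 2 down (11.1%) of 18. Hes5, a Notch target of astrocytes and progenitors, measured 0.2397, 0.9796 and 0.425 CPM against 0.341, 5.25 and 8.09 CPM (-2.86 ± 0.603, adjusted p = 0.000896, not called against Ctr 72 h alone at -1.69). Cholesterol synthesis and handling genes had 9 of 23 up (39.1%) and none down, and mitotic genes 9 of 18 up (50%) and 1 down (5.56%). Interneuron markers had 3 of 14 up (21.4%), CA2 and CA3 markers 1 of 12 up (8.33%), and dentate markers 2 of 12 up (16.7%) and 1 down (8.33%). Blood cell genes had 1 of 6 up (16.7%) and choroid plexus genes none of 6 by edgeR, DESeq2 or limma-voom (1 with an unadjusted p under 0.05, beside 48% of all genes). Of 12 transcription factors that the study discusses, 7 were called up (58.3%) and none down. Since they were chosen on these samples, the count is no independent evidence. Rest, a repressor of neuronal genes, measured 16.1, 25.96 and 14.01 CPM against 2.39, 5.297 and 7.34 CPM (1.87 ± 0.16, adjusted p = 3.29e-08).

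Ranked by fold among clearly expressed called genes, the 10 largest rises included those of Cd14, Socs3, Fndc9, Inhba, Sphk1, Atf3, Fosb, Aspg and Flnc, from 6.05 to 4.54. Fndc9 measured 62.5, 90.9 and 96.9 CPM against 1.22, 1.77 and 5.62 CPM (5.42 ± 0.41, adjusted p = 6.42e-09), and it shares 1007 exonic bases with Cyfip2 on the other strand. Flnc, encoding the actin cross-linker filamin C, measured 46.02, 42.8 and 22.8 CPM against 0, 1.94 and 2.45 CPM (4.54 ± 0.34, adjusted p = 6.07e-09). The 10 largest falls were those of P2ry12, Tmem119, Selplg, Slc2a5, Lefty1, Vmn2r84, Neurod1, Dio3, Hmcn1 and Rtp1, so that 4 of the 10 belong to the homeostatic microglial list. Dio3, the deiodinase that inactivates thyroid hormone, measured 0.3196, 2.25 and 1.91 CPM against 3.63, 7.86 and 12.1 CPM (-2.34 ± 0.75, adjusted p = 0.0177), and lost its call without SE 6 h replicate 1. Vmn2r84 (-2.51), Hmcn1 (-2.204) and Rtp1 (-2.16) were all under 2 CPM after SE, and Hmcn1 changed by -2.83 without SE 6 h replicate 3.

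Ranked by the change in CPM, the largest gains were those of Scg2, Gfap, Vgf, Ina, R3hdm1, Homer1, Dclk1, Arpp21, Fosb and Slc6a17. Ina, encoding the neuronal intermediate filament internexin, measured 692, 1235 and 1363 CPM against 161, 233 and 294 CPM (2.24 ± 0.18, adjusted p = 1.46e-08). R3hdm1 measured 849, 1159.6 and 1537 CPM against 256, 371 and 415 CPM (1.79 ± 0.16, adjusted p = 6.98e-08), and Arpp21, a phosphoprotein regulated by cyclic AMP, 834, 970.4 and 1086 CPM against 165, 216 and 351 CPM (2.09 ± 0.23, adjusted p = 8.27e-07). Thus 8 of the 10 genes with the largest gains, all but Gfap and Fosb, were not among the glial or immediate early lists. Dclk1 (0.89), a microtubule-associated kinase, and Slc6a17 (1.07), a vesicular amino acid transporter, gained most by level with smaller folds.

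The largest losses in CPM were those of Norad, Cpne7, Jph4, Disp2, Zbtb18, Rnf112, Kalrn, Gas7, Phyhip and Hspa12a, at log2 fold changes of -1.11 to -0.67. Zbtb18, a transcriptional repressor of neuronal development, measured 224, 199.9 and 248 CPM against 324, 458 and 729 CPM (-1.11 ± 0.19, adjusted p = 0.000121). Norad, a long noncoding RNA, measured 661, 728 and 703 CPM against 862, 1150.5 and 1446 CPM (-0.67 ± 0.15, adjusted p = 0.00111). Jph4, a junctophilin that ties the plasma membrane to the endoplasmic reticulum, measured 248, 416 and 465 CPM against 539, 674 and 914 CPM (-0.87 ± 0.15, adjusted p = 0.000185). These losses were close to the fold threshold, and leaving out single libraries took Norad, Cpne7, Jph4, Disp2, Rnf112, Kalrn or Gas7 under it or over the p threshold.

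By SE 12 h, 246 of 18153 genes (1.36%) differed from SE 6 h, here with a log2 fold change of 1 or more required, with 82 up (0.452%) and 164 down (0.903%). The count depended on single libraries, being 75 without SE 6 h replicate 3. Among the lists, 7 of 25 reactive astrocyte genes rose further, and of 30 immediate early genes 1 rose and 2 fell. Among genes called in both comparisons, the largest further rises were those of Lif, Spp1, Hspb1, Tll1 and Tnfrsf12a. Lif went from 17.6 ± 4.49 CPM (SD, n = 3) at SE 6 h to 110.1 ± 56.7 CPM at SE 12 h (2.597 ± 0.39, adjusted p = 0.00209). Spp1, encoding osteopontin, went from 55.5 ± 13.1 to 259 ± 146 CPM (2.27 ± 0.41, adjusted p = 0.00535), and Hspb1 from 37.7 ± 7.55 to 180.2 ± 88.5 CPM (2.25 ± 0.35, adjusted p = 0.00252).

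Tll1, a protease of the astacin family, and Tnfrsf12a, the TWEAK receptor, changed by 2.02 and 1.76. The rise of Tll1 over controls rested on SE 6 h replicate 1 and was 1.200 without it (adjusted p = 0.06). The largest falls were those of Magel2, Fbxo47, Cenpa, Ttll8 and Dbp. Fbxo47 went from 14.8 ± 7.46 to 3.33 ± 3.15 CPM (-2.27 ± 0.64, adjusted p = 0.0467) and Cenpa, the centromeric histone variant, from 16.2 ± 4.305 to 3.89 ± 1.599 CPM (-2.12 ± 0.47, adjusted p = 0.016). Both comparisons use the same 3 SE 6 h libraries and the genes were selected for a call in both, so the rise and the fall are not independent. Magel2 overlapped the controls, and its rise over them was 1.21 against Ctr 12 h alone (adjusted p = 0.103) and 1.401 without SE 6 h replicate 3 and 1.397 without Ctr 72 h replicate 2. The rise of Fbxo47 was 3.24 without Ctr 72 h replicate 2, and that of Cenpa 4.15 without Ctr 72 h replicate 1. Dbp, already low at SE 6 h, fell further to 3.28 ± 1.202 CPM (-2.01 ± 0.33, adjusted p = 0.00306). Both times of SE differ in clock time as well, and for these genes time since SE and hour of day cannot be told apart.

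**Figure D5:**
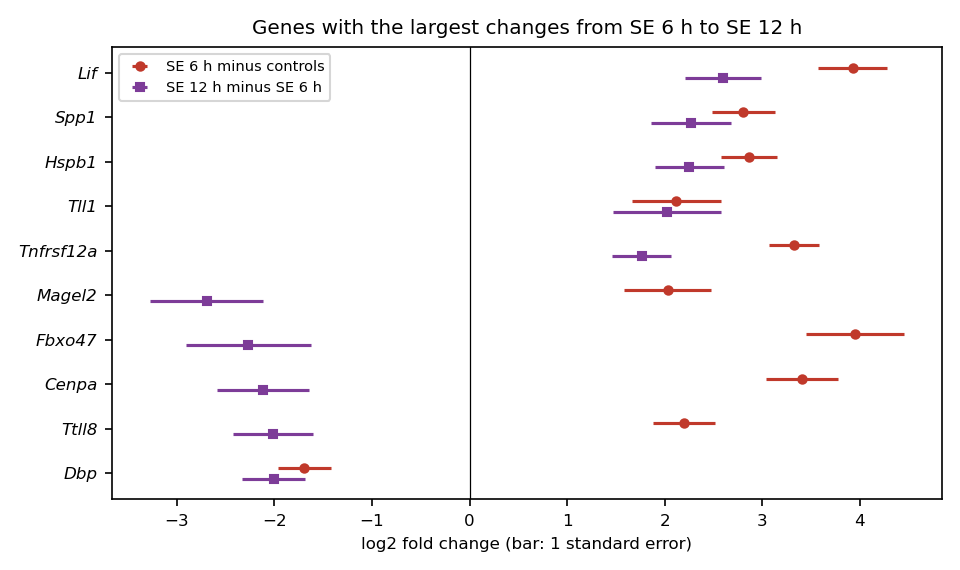
Log2 fold change with 1 standard error for the 5 largest rises and 5 largest falls from SE 6 h to SE 12 h, with SE 6 h against controls as red circles and SE 12 h against SE 6 h as purple squares. Lif, Spp1, Hspb1, Tll1 and Tnfrsf12a lie to the right of 0 in both comparisons, Magel2, Fbxo47, Cenpa and Ttll8 change sign, and Dbp lies to the left in both.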

How the data were processed

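The data are gene counts of polyA RNA-seq from microdissected CA1. Per the labels, the authors trimmed reads with Trim Galore 0.6.6, aligned them with STAR 2.7.8a to GRCm39 and counted with HTSeq 0.13.5 (SAMtools 1.10), and the deposited values are raw counts per gene with no normalization. The TruSeq kit used does not mark strand, so reads of overlapping genes on opposite strands cannot be told apart. Of 18647 genes, 18552 were matched to a symbol and 95 were not.

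Counts of all 24 libraries were fitted in edgeR 4.0.16 (R 4.3.3; TMM, filterByExpr, quasi-likelihood test) with 1 RUVr factor, which keeps 15 residual degrees of freedom, and SE 6 h was contrasted with the mean of the 3 control groups. Genes passed at a Benjamini-Hochberg adjusted p no higher than 0.05 with a log2 fold change of 0.66 or more in either direction (1 between SE times). CPM values describe levels, with a prior count of 2 where logged. Named genes were, by rule, the 10 largest rises and falls in log2 fold change and in CPM among called genes averaging 1 log2 CPM or more, without overlap between groups, the called members with the largest change and the defining members of the lists, and the 5 largest rises and falls to SE 12 h. Others named were chosen after their values were seen, and some that the rule gives are not reported here. The comparison, the lists and the tests were chosen with earlier results of these data known. The main fit did not pair libraries by replicate number. Alternatives included DESeq2 1.42.0, limma 3.58.1 (voom), other scalings and filters, other control sets and leaving out each library. The pipeline was also run on simulated counts with known changes and no outlying library. That run does not test the calls made here.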

Additional observations from a re-analysis of the deposited data

Results flagged for a closer look

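Of 202 values of the 9 controls (CPM of the named genes and summed marker lists), 42 had a highest or lowest library farther from the others than Dixon's 95% criterion for 9 samples allows. Chance alone gives such a gap in about 1 of 20 groups of normally distributed, independent values. That rate does not hold here, since many flags share 1 library and some values are a few counts. Tnf and Mmp12 had at most 1 count in any control and Sele at most 4, so a single library with reads is flagged by construction. Most were in Ctr 72 h replicate 2, the library with the high sensory ganglion genes. There the highest of the 9 control values, in CPM, were those of Nfil3 (22.3), Nptx2 (103), Fgf2 (17.1), Ccl2 (2.56), Osmr (52.01), Tnfrsf1a (16.9), Stat3 (121), Tnfrsf12a (10.2), Gbp2 (10.9), Hspb1 (42.6), Bag3 (75.03), Srxn1 (149.9), Timp1 (2.05), Plaur (4.43), Cd44 (68.6), Vim (189), Angpt2 (4.09), Pecam1 (41.1), Spp1 (48.6) and Tll1 (5.63). The lowest of the 9 in the same library was that of Tmem119 (11.3). The summed levels of the following marker lists were highest there: microglia, shared and reactive (2262.9 CPM), astrocyte, reactive (979 CPM), choroid plexus (109 CPM), blood cell (115 CPM) and sensory ganglion (3089.9 CPM). Lowest was interneuron (1207.3 CPM). Ctr 12 h replicate 2 stood high for Ccl3 (0.7603 CPM), Mmp12 (0.0691 CPM), Sphk1 (4.35 CPM) and Arpp21 (351 CPM). Ctr 12 h replicate 3 stood high for Bdnf (40.3 CPM), Tnf (0.0387 CPM), Ptgs2 (42.5 CPM) and Kcnv1 (70.3 CPM). Ctr 12 h replicate 3 stood low for Ccn3 (198 CPM). Ctr 72 h replicate 1 stood high for Ccl4 (0.253 CPM), Bcl3 (1.86 CPM), Lilrb4b (0.338 CPM) and Sele (0.338 CPM). Ctr 72 h replicate 3 stood high for Serpinb2 (1.88 CPM) and Fndc9 (5.62 CPM). Without Ctr 72 h replicate 2, 3961 genes were called at SE 6 h, beside 3997 with it.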

How the results depend on the processing

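The count of DEGs at SE 6 h, 3997 with all libraries, stayed within 1.5 times under other tools (DESeq2 4060, limma-voom 3821), scalings, control sets (3317 against Ctr 12 h alone to 3889 against Ctr 12 h and Ctr 36 h) and with a replicate block (3962 DEGs), and the block changed no count by over 1.5 times. Same-numbered libraries deviated together at correlations of -0.16 to 0.17 over 18 pairs, and differently numbered ones at -0.23 to 0.23 over 36 pairs. The titles give only a replicate number, and these correlations cannot exclude that same-numbered libraries were prepared together. The counts of DEGs were moved by a filter of at least 10 counts in every library (2190 DEGs and 1423 upregulated, of fewer genes tested). Thinning all libraries to the smallest also moved them (1664, with 1177 up and 487 down, and 72 between SE times). So did a log2 fold threshold of 1 (2582, with 420 down) and no threshold (7247, with 3035 down, and 831 between SE times). The count between SE 12 h and SE 6 h, 246, was 148 without the RUVr factor, 381 by DESeq2, 410 by limma-voom and 461 with a fold threshold of 0.66. Chosen after seeing the data, omission of Ctr 72 h replicate 2 and SE 6 h replicate 3 gave 132, and 73 when the RUVr factor was omitted too. Leaving out 1 library, without Ctr or SE replicates in turn, gave 3409 to 4245 DEGs at SE 6 h, 2420 to 3151 upregulated, 843 to 1318 downregulated and 75 to 292 between SE 12 h and SE 6 h. The cause of these shifts was not tested beyond the fewer genes or counts that a filter or thinning leaves. Of 173 called genes named, 118 kept their call in every setting, 183 of 5300 recomputed values lost the call and none changed direction. Of 13 uncalled genes named, Chrm1 changed sign against Ctr 72 h alone (log2 fold change 0.0113), and 34 of 403 values passed the thresholds. With library size alone as scaling, 3966 genes were called. SE 6 h replicate 3, the deepest of its group, carries label number 92 and the other SE 6 h libraries 115 and 116. With the range of label numbers as a factor 3097 genes were called, and within the range 109 to 122 (2 SE 6 h and 5 control libraries) 3645. Depth limits the genes under about 1 CPM, since the smallest control library held 2663936 counts.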
